A study of Mus musculus with 3 samples.

Results

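The genes described here are 10 genes of the Nrf2 antioxidant response, out of 22342 protein-coding genes on chromosomes 1 to 19 and X in the GENCODE M1 annotation of the mm9 mouse genome. They form a list of names, drawn up with earlier results of these data known, and all 10 were found in the annotation: Nfe2l2, Keap1, Gclc, Gclm, Slc7a11, Txnrd1, Srxn1, Nqo1, Sqstm1 and Sod2. For each gene, the Ser5 Pol_II ChIP-Seq tags were counted over the gene body, within 1 kb of the transcription start site (TSS), over the gene beyond that window and over the 4 kb past the gene end, and the deposited Ser5 peaks at the gene were listed.

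Macrophages were grown from the bone marrow of female Fvb mice (Fvb/Hsd in the methods of the study) in medium conditioned by L929 cells and used on the 7th day of differentiation. In the 2 Ser5 libraries, chromatin was precipitated with an antibody (ab5131) against Pol_II phosphorylated on serine 5 of the YSPTSPS repeat, from untreated cells (UT) and from cells that had received 10 ng/ml lipopolysaccharide (LPS, a component of Gram-negative bacteria that activates macrophages) for 2 h. The third library was input DNA from untreated cells, that is, chromatin sequenced with no precipitation, and there was no input from LPS-treated cells. Each condition had 1 library, so no difference has a replicate check, no test was made, and every interval given is a 95% interval for counting error only.

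Nrf2, the product of Nfe2l2, is a transcription factor that pairs with small Maf proteins at antioxidant response elements (AREs) and drives genes for glutathione synthesis, thioredoxin recycling and quinone detoxification. In resting cells Keap1 holds Nrf2 and hands it to a ubiquitin ligase for degradation, and oxidants or electrophiles that modify Keap1 let Nrf2 accumulate. Activated macrophages make superoxide and nitric oxide, and these genes are known for protecting the cell from its own oxidants. Phosphorylation of serine 5 marks Pol_II that has begun transcription and is densest just past the TSS, with less over the rest of a transcribed gene. In a population of cells, more Pol_II per cell and more cells with Pol_II at a gene cannot be told apart.

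The libraries held between 6249819 and 7616771 tags on the chromosomes used. Counts are given as tags, and levels as TPM, here tags scaled to 1000000 tags of the library, or TPM per kb of the region. A gene is called higher or lower after LPS when the ratio of its LPS TPM to its UT TPM is at least 2 or at most 0.5 with at least 10 Ser5 tags in the 2 libraries together. Over the gene body all 8 LPS-response genes looked at, among them Tnf and Ccl5, were higher in the library labelled LPS, with ratios between 6.18 and 396. All 8 macrophage markers were at least 2 times above input over the gene body in UT and 7 of 8 after LPS (Itgam, an integrin subunit, had 182 tags after LPS and 358 in the input). Between the libraries 5 of these 8 markers were lower after LPS and 1 higher, with a median ratio of 0.458, and their part in the results below was not tested. The 9 T cell, B cell and fibroblast markers stayed below that level in both libraries, as did the 3 neutrophil markers in UT, and after LPS 1 neutrophil gene, Camp, passed it with 29 tags against 14 in the input. Of the B cell markers Ms4a1 had a ratio of LPS to UT of 3.19, from 13 and 34 tags against 115 in the input. Tags were 45 bases long in UT, 30 in LPS and 36 in the input, while the methods of the study give the lengths of the Ser5 libraries the other way round. Over the 10 genes between 0 and 10 UT tags per gene lay where a sequence of 30 bases is not unique.

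The sequences upstream of the genes were searched on both strands for the ARE core TGACNNNGC, for the AP-1 motif TGANTCA and for the NF-kB consensus. The motif TGANTCAGC, in which an AP-1 motif is followed by GC, and the C/EBP-ATF response element TGATGNAA, through which ATF4 acts on amino acid stress genes, were added after the sequences had been read. Matches to TGACTCAGC count for the ARE core, AP-1 and TGANTCAGC at once. Within 300 bases upstream of the TSS the ARE core was found in 3 of 10 genes (Nfe2l2, Gclm and Sqstm1), against 11.7% of all coding genes. TGANTCAGC was found in Srxn1 and Sqstm1, and in 1.07% of coding genes. Within 1 kb on either side of the TSS the ARE core occurred in 8 of 10 genes and in 51.9% of coding genes. All these counts use the most upstream coding start of each gene. Txnrd1 is among the 8 through a match 556 bp past that start, and the match before its downstream start, printed below, is in neither count. A match is only a run of letters, and these libraries do not show which factor was bound.

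The following 300 bases end 1 base before the TSS, or for Txnrd1 before the start that carried the Ser5 tags, and are printed 5′ to 3′ on the strand of the gene, from the mm9 assembly, with motif matches in capitals. Slc7a11 and Sod2 are shown because they had the highest ratios of LPS to UT at the TSS, Txnrd1 because its Ser5 tags began at a start other than the most upstream one, and Srxn1 because it holds a pair of AP-1 motifs.

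Slc7a11, chr3:50247536-50247835, minus strand: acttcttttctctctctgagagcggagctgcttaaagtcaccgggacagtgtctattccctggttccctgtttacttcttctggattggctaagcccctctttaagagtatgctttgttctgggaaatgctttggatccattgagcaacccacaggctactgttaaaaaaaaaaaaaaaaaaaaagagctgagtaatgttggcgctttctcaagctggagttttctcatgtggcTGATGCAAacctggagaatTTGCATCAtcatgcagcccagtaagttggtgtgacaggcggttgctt
Sod2, chr17:13200405-13200704, plus strand: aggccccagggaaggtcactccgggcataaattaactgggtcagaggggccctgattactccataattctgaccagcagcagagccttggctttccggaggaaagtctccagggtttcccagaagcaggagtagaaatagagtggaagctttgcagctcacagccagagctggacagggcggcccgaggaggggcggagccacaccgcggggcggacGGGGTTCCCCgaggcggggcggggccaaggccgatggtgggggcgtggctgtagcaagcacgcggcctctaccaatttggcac
Txnrd1, chr10:82321651-82321950, plus strand: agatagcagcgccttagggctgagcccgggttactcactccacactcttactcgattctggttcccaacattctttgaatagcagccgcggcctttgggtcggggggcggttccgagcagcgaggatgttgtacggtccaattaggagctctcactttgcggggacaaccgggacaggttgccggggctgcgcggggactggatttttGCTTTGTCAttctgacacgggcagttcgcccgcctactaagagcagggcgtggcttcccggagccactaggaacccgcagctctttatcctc
Srxn1, chr2:151930960-151931259, plus strand: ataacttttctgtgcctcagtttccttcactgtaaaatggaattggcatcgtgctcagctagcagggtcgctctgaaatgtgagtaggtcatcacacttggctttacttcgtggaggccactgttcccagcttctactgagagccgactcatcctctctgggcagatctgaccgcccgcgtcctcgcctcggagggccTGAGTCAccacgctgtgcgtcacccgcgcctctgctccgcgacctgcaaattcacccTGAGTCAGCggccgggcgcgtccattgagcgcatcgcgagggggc

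In Slc7a11 the capitals mark the C/EBP-ATF element on both strands, at -66 to -59 and at -47 to -40 from the TSS. This element occurs in the same window of 3.82% of coding genes, and among the 10 genes only in Slc7a11. The capitals of Sod2 mark an NF-kB match at -83 to -74, a motif that 8.95% of coding genes hold in this window. Among the 10 genes Sqstm1 held this motif there too, at -11 to -2, which is not printed here. The capitals of Txnrd1 mark an ARE core on the other strand, at -92 to -84 from that start. In Srxn1 they mark AP-1 matches at -102 to -96 and at -45 to -39, the second of which is the TGANTCAGC match. The AP-1 motif occurs in 7% of these windows.

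A further pair of sites is shown because the same 9 bases, TGACTCAGC on the other strand, lie in a peak upstream of Gclc and in the promoter of Sqstm1. They are printed on the strand of each gene, as 300 bases around the site for Gclc and as 25 bases for Sqstm1.

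Gclc, chr9:77598406-77598705, plus strand: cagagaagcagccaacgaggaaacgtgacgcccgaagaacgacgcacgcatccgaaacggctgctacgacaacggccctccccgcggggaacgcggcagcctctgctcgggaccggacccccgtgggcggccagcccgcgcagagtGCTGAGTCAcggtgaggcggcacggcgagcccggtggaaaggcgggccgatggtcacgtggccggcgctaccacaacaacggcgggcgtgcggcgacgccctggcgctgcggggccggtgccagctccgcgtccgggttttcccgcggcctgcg
Sqstm1, chr11:50024568-50024592, minus strand: acgacactGCTGAGTCAtaggcagg

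The Gclc site lies from -3790 to -3782 from the TSS, outside the annotated bounds of Gclc. The Sqstm1 site lies from -255 to -247, within the bounds of the neighbouring gene Mgat4b, which runs the other way.

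Over the gene body, 5 of the 10 genes were at least 2 times higher after LPS (Slc7a11, Sod2, Sqstm1, Gclm and Nfe2l2) and 0 were lower. Of 17378 coding genes with enough tags, 5.82% were higher and 11.2% lower by the same rule. The median ratio of the 10 genes was 2.01 and that of the coding genes 0.874, which is -0.19 on the log2 scale. The ratio was above 1 in 9 of the 10 genes, and in 36.6% of coding genes. Gclc was the exception, with a ratio of 0.668.

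**Figure D1:**
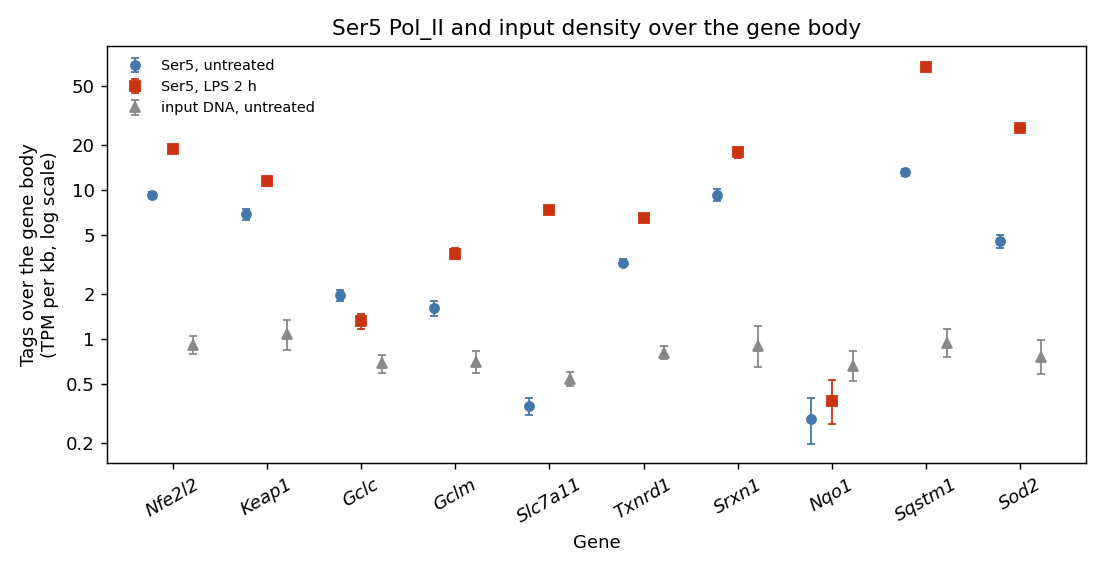
Density of tags over the gene body (TPM per kb, log scale) for the 10 genes in untreated Ser5 (circles), Ser5 after LPS for 2 h (squares) and input DNA (triangles), with 95% Poisson intervals. Slc7a11 goes from 0.354 to 7.37 TPM per kb, Gclc falls from 1.97 to 1.32, and Nqo1 lies below the input in both Ser5 libraries when all tags are the scale (above it after LPS, 1.18 times, when the tags outside the peaks are).

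In untreated cells the density over the gene body was highest at Sqstm1, with 13.2 TPM per kb, followed by Nfe2l2 (9.28), Srxn1 (9.27), Keap1 (6.86), Sod2 (4.53), Txnrd1 (3.26), Gclc (1.97), Gclm (1.61), Slc7a11 (0.354) and Nqo1 (0.289). The neighbours in this order whose intervals overlapped were Nfe2l2 and Srxn1, and Slc7a11 and Nqo1. After LPS Sqstm1 was again the highest, with 67.3 TPM per kb, and Sod2 (26.1), Nfe2l2 (18.8), Srxn1 (17.9), Keap1 (11.4), Slc7a11 (7.37), Txnrd1 (6.51), Gclm (3.74), Gclc (1.32) and Nqo1 (0.385) followed. Here only Nfe2l2 and Srxn1 had overlapping intervals among neighbours. The input had between 0.543 and 1.08 TPM per kb over the same gene bodies.

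Nfe2l2, which encodes Nrf2, occupies bases 75513570 to 75542698 of chromosome 2 (minus strand). Its gene body held 2060 tags in UT, 3423 after LPS and 202 in the input. The ratio was 2.03 (interval 1.92 to 2.14), so that the interval reaches below the limit of 2. Within 1 kb of the TSS there were 712 tags in UT, 841 after LPS and 26 in the input, a ratio of 1.44 (1.30 to 1.59). Beyond that window the ratio was 2.26 (2.12 to 2.41), from 1479 and 2740 tags, and in 4 equal parts of this stretch it lay between 1.97 and 2.42. The gene was thus covered by Ser5 along its whole length in both libraries, and the deposited peaks covered 66.6% of it in UT and 88.7% after LPS. A non-coding gene, E030042O20Rik, starts 129 bp away on the other strand, and since ChIP tags carry no strand of transcription, the Pol_II of these starts cannot be told apart.

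Keap1, the Nrf2 inhibitor, lies on the minus strand (chromosome 9, 21034174 to 21043776). It held 502 tags in UT, 687 after LPS and 78 in the input, a ratio of 1.67 (1.48 to 1.88). At the TSS the counts were 211, 229 and 18, a ratio of 1.32 (1.09 to 1.60). The rest of the gene had a ratio of 1.81 (1.57 to 2.09), and of its 4 equal parts the second had the highest, 3.20 (2.38 to 4.37). That part held 62 tags in UT and 163 after LPS. Most of these after LPS lay in 1 intronic peak, from 21039611 to 21040541, with 44 UT and 140 LPS tags. The ratio of this peak was 3.88 (2.75 to 5.57), so the change was not even along the gene. The non-coding gene Gm16754 overlaps the 3′ part of Keap1 by 2910 bp on the other strand.

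The glutathione genes differed from one another. Glutathione is made from glutamate, cysteine and glycine, Gclc and Gclm encode the catalytic and the modifier subunit of the enzyme of the first step, and Slc7a11 is the subunit of the cystine-glutamate exchanger that brings in cystine. Slc7a11 had the highest ratio of the 10 genes, Gclm was higher, and Gclc was the single gene with fewer tags after LPS in proportion to the library.

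Slc7a11 occupies bases 50168858 to 50247535 of chromosome 3 (minus strand). Over its 78.7 kb there were 212 tags in UT, 3623 after LPS and 322 in the input. The ratio of LPS to UT was 20.8 (18.1 to 24.0), which ranks 27 among 17378 coding genes. In UT the density was 0.651 times that of the input with all tags as the scale, and 1.24 times (1.04 to 1.48) with the tags outside the peaks as the scale, so that its place above or below input depends on the scaling. After LPS it was 13.6 times the input on the first scale.

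At the Slc7a11 TSS the counts were 30 in UT, 762 after LPS and 17 in the input. The ratio there was 31.0 (21.5 to 46.2), which ranks 18 among 12538 coding genes. The deposited peaks went from 1 over the gene in UT, with a score of 67.0, to 84 after LPS, and from 0.202% to 58.7% of the gene covered. The ratio was 28.7 (21.4 to 39.5) in the first of 4 equal parts of the gene beyond 1 kb and 12.2 (9.39 to 16.2) in the last, with 17.3 and 19.9 between them. The Ser5 tags after LPS therefore reached the end of the gene, at a density of 8.94 TPM per kb in the first and 5.04 in the last part. In the 4 kb past the end there were 1 tag in UT, 66 after LPS and 3 in the input, a ratio of 80.4 with a wide interval of 13.9 to 3225.

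Gclm lies on the plus strand (chromosome 3, 121948475 to 121972902). It held 299 tags in UT, 571 after LPS and 130 in the input, a ratio of 2.33 (2.02 to 2.69). Its TSS window had 207, 241 and 9 tags, and a ratio of 1.42 (1.17 to 1.72). The sides of the TSS differed in this window, with 108 and 88 tags upstream (ratio 0.993, 0.741 to 1.33) and 99 and 153 downstream (1.88, 1.45 to 2.45). Further into the gene the ratio was 2.55 (2.15 to 3.03), with 3.97 (2.70 to 5.98) in the third of 4 equal parts. Its peaks went from 3 to 11 and covered 4.90% and 18.8% of the gene. The non-coding gene Gm17494 overlaps Gclm by 14027 bp, and the part of it outside Gclm had a ratio of 1.04 (0.913 to 1.19).

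Gclc occupies bases 77602342 to 77642292 of chromosome 9 (plus strand). It held 600 tags in UT, 329 after LPS and 207 in the input, a ratio of 0.668 (0.582 to 0.766). The ratio of the median coding gene, 0.874, lies above this interval. Around the TSS the counts were 311, 204 and 11, a ratio of 0.799 (0.667 to 0.957), and when identical tags were counted once this ratio was 0.972. Beyond 1 kb it was 0.559 (0.463 to 0.673), from 366 and 168 tags, and there the density after LPS, 0.690 TPM per kb, was 1.01 times that of the input with all tags as the scale and 2.07 times (1.68 to 2.56) with the tags outside the peaks as the scale. Over 4 equal parts of this stretch the ratio went from 0.725 to 0.435.

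Gclc also had a peak upstream of the gene in both libraries, centred at -3993 bp in UT and at -4025 bp after LPS, the peak that holds the site printed above. In UT it ran from 77597683 to 77599016 with a score of 1234, and this interval held 227 tags in UT, 150 after LPS and 17 in the input. The ratio was 0.805 (0.651 to 0.994), close to that of the TSS. Its density was 22.3 TPM per kb in UT and 18.0 after LPS. The UT peak at the TSS, 589 bp wide with a score of 2339, had 66.3 and 52.3 TPM per kb, so that the upstream peak was wider and less dense than the peak at the start in both libraries. Beside the upstream peak UT had another, weaker one, from 77599017 to 77599472 with a score of 146, that overlapped no peak after LPS. It held 34 tags in UT, 3 after LPS and 6 in the input, a ratio of 0.108 (0.0211 to 0.342). The upstream stretch thus did not change evenly.

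Txnrd1 and Srxn1 belong to the thioredoxin system. Txnrd1 is the cytosolic thioredoxin reductase, which uses NADPH to recharge thioredoxin, and Srxn1 (sulfiredoxin) repairs overoxidised peroxiredoxins. Both lay just below the limit of 2 over the gene body.

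Txnrd1 lies on the plus strand (chromosome 10, 82296696 to 82360469). Its body held 1584 tags in UT, 2594 after LPS and 390 in the input, a ratio of 2.00 (1.87 to 2.13) that is 1.996 before rounding. The annotated start farthest upstream carried 4 tags in UT, 0 after LPS and 8 in the input, too few for a ratio. The start 25255 bp downstream had 403, 585 and 23 tags, a ratio of 1.77 (1.56 to 2.01). The next start, 26390 bp downstream, had 199, 322 and 24 tags and a ratio of 1.97 (1.65 to 2.37), and the windows of these starts overlap. The Ser5 tags of Txnrd1 thus began at the downstream starts, with 538 UT and 779 LPS tags in their joined windows. Past these windows the gene had 977 and 1769 tags, and 4 equal parts of that stretch had ratios between 1.91 and 2.30.

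Srxn1 (chromosome 2, plus strand, 151931252 to 151937112) held 414 tags in UT, 655 after LPS and 40 in the input. The ratio was 1.93 (1.70 to 2.19). At the TSS the counts were 428, 463 and 17, a ratio of 1.32 (1.15 to 1.51). Here too the sides differed, with 152 UT and 83 LPS tags upstream, a ratio of 0.665 (0.503 to 0.875), and 276 and 380 downstream, a ratio of 1.68 (1.43 to 1.97). The gene beyond 1 kb had a ratio of 2.46 (2.00 to 3.05), and the share of the gene under peaks went from 43.7% to 94.2% with 5 peaks in each library. The 4 kb past the gene end had 212, 435 and 25 tags, a ratio of 2.50 (2.12 to 2.96).

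Nqo1, a quinone reductase and a commonly used readout of Nrf2 activity, occupies bases 109912125 to 109927106 of chromosome 8 (minus strand). Its body held 33 tags in UT, 36 after LPS and 75 in the input, a ratio of LPS to UT of 1.33 (0.806 to 2.20). The body was at 0.435 times the input in UT and 0.579 times after LPS, and at 0.828 times (0.532 to 1.26) and 1.18 times (0.773 to 1.78) with the tags outside the peaks as the scale. Ser5 over the body was therefore not detectable above input at this depth in either library. The TSS window still held a peak in both libraries, centred 238 bp upstream in UT and 230 bp upstream after LPS, with scores of 308 and 449. Of the 82 UT and 91 LPS tags in that window, 66 and 72 lay on the upstream side, against 8 in the input. The ratio of the whole window was 1.35 (0.992 to 1.85).

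Sqstm1 encodes p62, an autophagy receptor that also binds Keap1 and draws it away from Nrf2. It lies on the minus strand (chromosome 11, 50012868 to 50024329). The gene body held 1148 tags in UT, 4819 after LPS and 82 in the input, a ratio of 5.12 (4.80 to 5.46). The TSS window had 484, 1180 and 18 tags, a ratio of 2.97 (2.67 to 3.31), and the rest of the gene 731 and 3768, a ratio of 6.28 (5.80 to 6.81). Peaks covered 92.9% of the gene in UT and 98.1% after LPS, so that the share of the gene under peaks was nearly the same.

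Sqstm1 shares its start with Mgat4b, which begins 63 bp away on the other strand, and the tags of these starts cannot be told apart. Mgat4b outside the shared window had a ratio of 1.35 (1.23 to 1.48). Past its end Sqstm1 had 442 tags in UT, 1917 after LPS and 32 in the input over 4 kb, or 14.5 and 76.7 TPM per kb, a ratio of 5.29 (4.76 to 5.88). The density after LPS was thus as high past the gene as over it. The gene 3010026O09Rik runs into this stretch from the other side and overlaps Sqstm1 by 750 bp. Its own start had 184 tags in UT and 91 after LPS, a ratio of 0.603 (0.464 to 0.779), while its gene outside Sqstm1 had 701 and 2071, a ratio of 3.60 (3.30 to 3.93).

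Sod2, the mitochondrial superoxide dismutase, is also a target of NF-kB in activated cells. It occupies bases 13200705 to 13210985 of chromosome 17 (plus strand). Over the gene body there were 355 tags in UT, 1675 after LPS and 59 in the input, a ratio of 5.75 (5.13 to 6.47). At the TSS the counts were 278, 848 and 12, a ratio of 3.72 (3.24 to 4.27), or 3.12 with identical tags counted once. Both sides of the TSS had about this ratio, 3.78 (2.74 to 5.28) upstream and 3.70 (3.18 to 4.32) downstream. Beyond 1 kb the ratio was 9.38 (7.79 to 11.4), from 128 and 985 tags, with values between 8.45 and 10.2 in its 4 equal parts. A stretch near the annotated gene end was blank in every library, with 0 UT tags, 0 LPS tags and 0 input tags in the 500 bp from 9000 bp, and 17.6% of the 30-base sequences of Sod2 are repeated elsewhere. The 4 kb past the gene end held 11, 31 and 3 tags, a ratio of 3.43 (1.68 to 7.57).

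**Figure D2:**
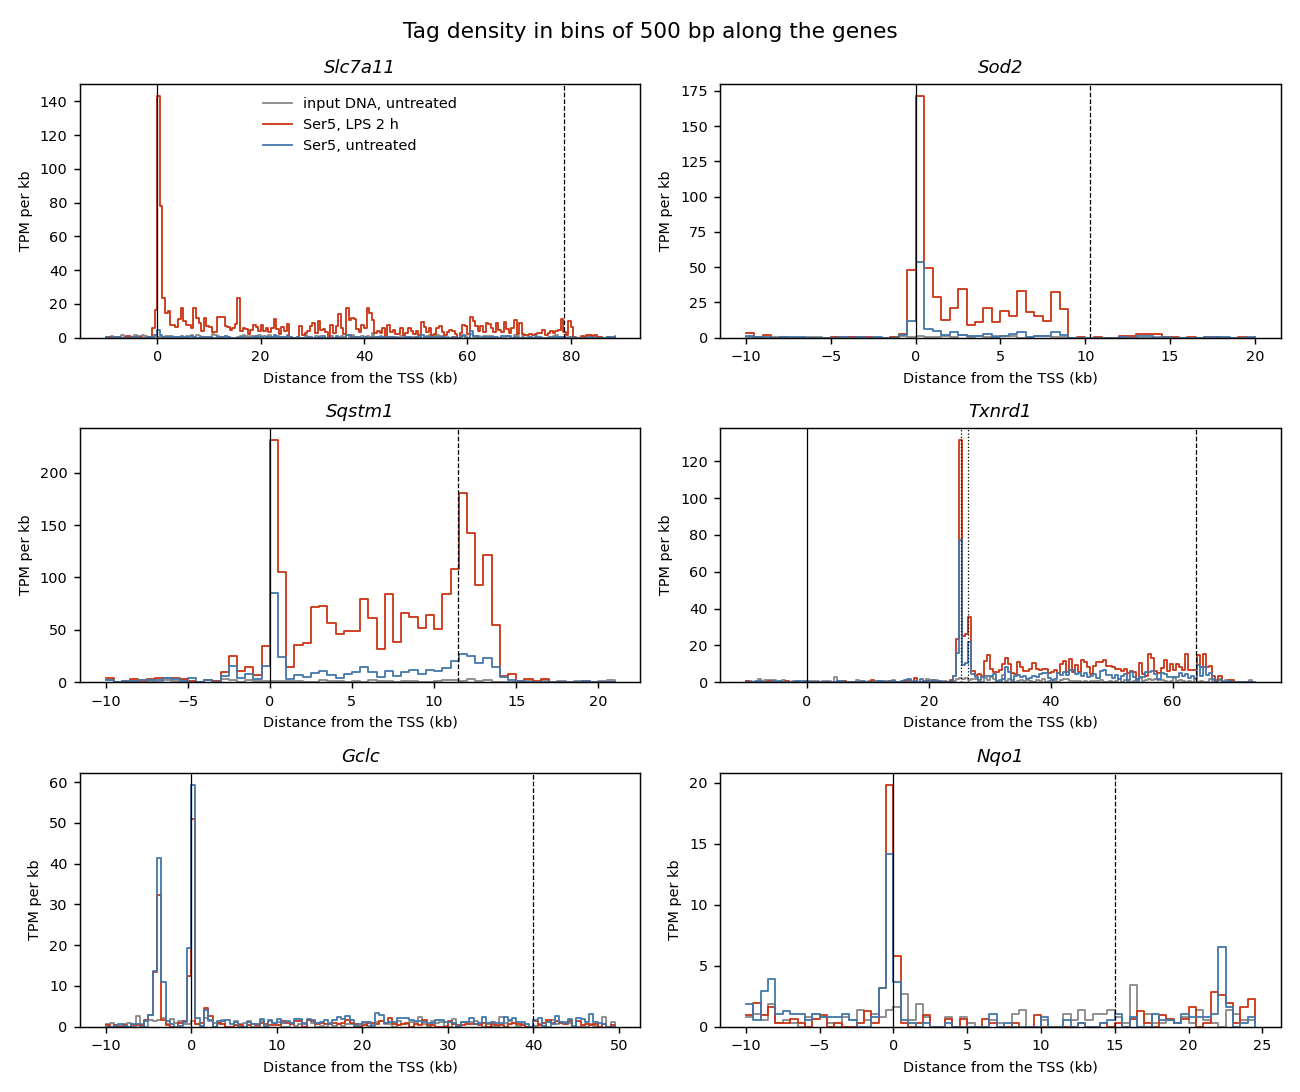
Tag density (TPM per kb) in bins of 500 bp against the distance from the TSS in kb, for 6 genes in untreated Ser5 (blue), Ser5 after LPS (red) and input (grey). Solid lines mark the TSS, dashed lines the annotated gene end and dotted lines the downstream starts of Txnrd1. The first bin of Slc7a11 goes from 4.46 to 143 TPM per kb and its gene fills with tags after LPS, Sqstm1 stays high past the gene end, Txnrd1 starts at the dotted lines, Gclc has a peak upstream as well as at the TSS (41.5 and 59.3 TPM per kb in UT in the bins that start at -4000 bp and 0 bp), and Nqo1 has its tags just upstream of the TSS.

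At the TSS, 3 of the 9 genes with enough tags were higher after LPS (Slc7a11, Sod2 and Sqstm1) and 0 lower, against 5.61% and 14.1% of 12538 coding genes. The median ratio was 1.42 for the 9 genes and 0.832 for the coding genes. Beyond 1 kb 6 of 10 were higher (these 3 with Gclm, Srxn1 and Nfe2l2) and 0 lower, against 6.66% and 12.2% of 16626 coding genes, with medians of 2.36 and 0.886. Counted around every annotated coding start, so that Txnrd1 enters through its downstream starts, 3 of 10 were higher and 0 lower, against 6.05% and 13.6% of 13393 coding genes. In the 4 kb past the gene end 4 of 10 were higher (Slc7a11, Sqstm1, Sod2 and Srxn1) and 0 lower, against 8.12% and 22.9%.

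**Figure D3:**
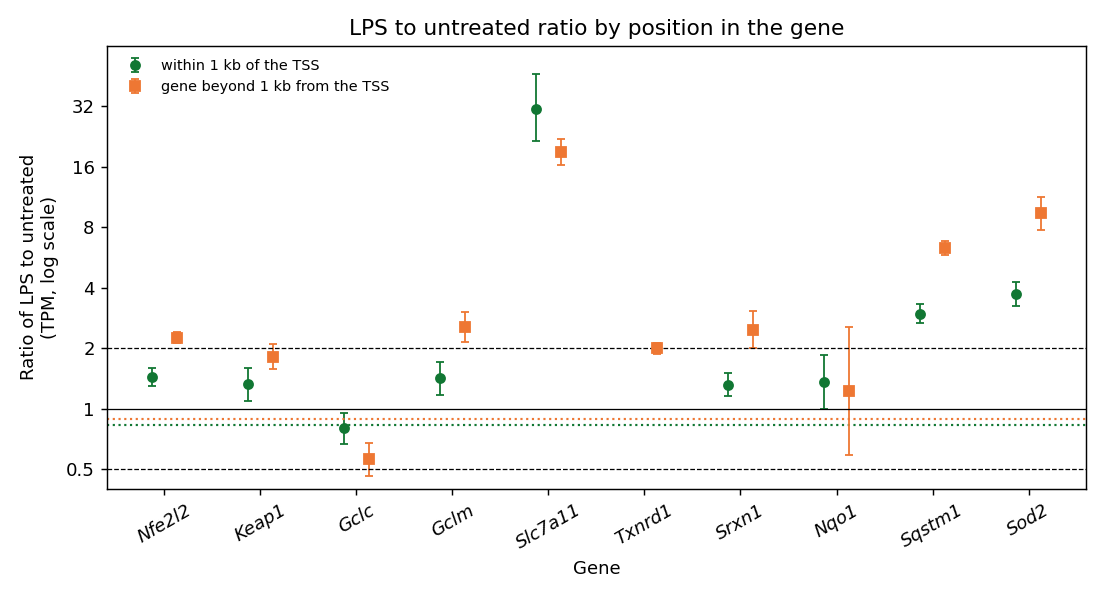
Ratio of LPS to untreated TPM (log scale) within 1 kb of the TSS (circles) and over the gene beyond it (squares) for the 10 genes, with 95% intervals for counting error. Dotted lines mark the median ratio of all coding genes in each region, 0.832 and 0.886, and dashed lines ratios of 2 and 0.5. The TSS window of Txnrd1 held too few tags and is left out. Squares lie above circles in Nfe2l2, Keap1, Gclm, Srxn1, Sqstm1 and Sod2, and below them in Gclc, Slc7a11 and Nqo1, with intervals that overlap in all 3.

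The change over the rest of the gene was set against the change at the TSS as a ratio of the 2 ratios, which needs no scaling between libraries. Its interval lay above 1 in 7 of the 10 genes. The value was 2.52 (2.00 to 3.20) for Sod2, 2.11 (1.85 to 2.42) for Sqstm1, 1.87 (1.45 to 2.41) for Srxn1, 1.80 (1.39 to 2.32) for Gclm, 1.57 (1.39 to 1.77) for Nfe2l2, 1.37 (1.08 to 1.74) for Keap1 and, from its downstream starts, 1.25 (1.09 to 1.43) for Txnrd1. In these 7 genes the share of tags within the TSS window was smaller after LPS, and in Sod2 it went from 68.5% to 46.3%. Gclc, with 0.700 (0.538 to 0.909), and Slc7a11, with 0.611 (0.398 to 0.910), had the opposite order, and the interval of Nqo1 (0.403 to 2.02) held 1. With identical tags counted once, or with 500 bp on each side of the TSS, the interval of Slc7a11 also held 1. Beyond 1 kb Slc7a11 in UT was at 0.588 times the input and Gclc after LPS at 1.01 times, with all tags as the scale. With the tags outside the peaks as the scale they were at 1.12 times (0.929 to 1.34) and 2.07 times (1.68 to 2.56). Tags this close to the input can be largely background, so the order in these genes is less certain. The value of Keap1 includes its intronic peak of 44 UT and 140 LPS tags and was not computed without it. The TSS windows of Sqstm1 and Nfe2l2 also cover the starts of Mgat4b and E030042O20Rik, whose tags cannot be told apart from theirs. The rest of Sqstm1 holds another annotated coding start 7873 bp downstream, with 126 UT and 743 LPS tags around it. That of Gclm holds one 10030 bp downstream, with 22 and 37 tags. Over 11809 coding genes with enough tags the median of this value was 1.05, and in 55.1% of them the value itself was above 1. The share of coding genes whose interval lay above 1 was not computed, so the 7 of 10 has no matching share.

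A deposited Ser5 peak lay within 1 kb of the TSS in 9 of 10 genes in UT and in the same 9 after LPS, against 48% and 46% of coding genes. Txnrd1, whose tags begin at its downstream starts, was the gene without one. At least 2 times the input density was reached at the TSS by 8 of 10 genes in UT (72.1% of coding genes tested) and by 9 of 9 after LPS (70.5%). Txnrd1 was left out after LPS, since its window held 0 Ser5 and 8 input tags, fewer than 10 together. The genes below in UT were Txnrd1 and Slc7a11, the latter at 1.74 times the input. With the tags outside the peaks as the scale Slc7a11 was at 3.32 times (1.77 to 6.42) and 9 of 10 genes passed. The share of coding genes that passed on that scale is not given here, so this count has no matching share. All 10 genes had a peak somewhere over the gene in both libraries. The share of coding genes with such a peak is not given here, so this count only describes the 10 genes. Between the libraries the number of peaks over a gene and the share of it covered did not always move together, since neighbouring peaks can join: in Nfe2l2 they went from 24 to 15 peaks while the covered share was larger, and Txnrd1 had 35 in both while its covered share went from 24.2% to 51.3%.

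A wider list of 55 antioxidant genes was counted in the same way, grouped as Nrf2 regulators, glutathione, thioredoxin and peroxiredoxin, haem and iron, NADPH supply, and superoxide and catalase genes. Over the gene body 7 were higher after LPS and 8 lower, or 12.7% and 14.5% of the list, against 5.82% and 11.2% of all coding genes tested. There were 8 higher and 7 lower with scaling to the tags outside the peaks, and 7 and 6 with identical tags counted once, so that which direction was the more frequent depended on the setting. The median ratio was 0.821, and that of all coding genes 0.874. The regulators, among them the small Maf genes, Bach1 and Cul3, had 0 of 9 past the limits and a median of 1.07. Of the 15 glutathione genes 3 were higher and 3 lower, of the 12 thioredoxin and peroxiredoxin genes 3 were higher and 2 lower, and of the 10 haem and iron genes 1 was higher and 2 lower. The 6 NADPH genes had 0 higher and 1 lower, and the 3 superoxide and catalase genes had none past the limits.

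The genes with the 5 highest ratios were Prdx1, Prdx5, Blvrb, Gsr and Txn1. Prdx1, a peroxiredoxin that removes hydrogen peroxide, had 1160 tags in UT, 4803 after LPS and 136 in the input, a ratio of 5.05 (4.73 to 5.38). Prdx5, another peroxiredoxin, had 429, 1209 and 41 tags, a ratio of 3.43 (3.07 to 3.84). Thioredoxin itself, Txn1, had 601, 1282 and 70 tags and a ratio of 2.60 (2.36 to 2.87), and Txnrd1, which reduces it, is described above with 2.00. Gsr, the glutathione reductase, had 528, 1142 and 255 tags and a ratio of 2.64 (2.38 to 2.93). Blvrb, a biliverdin reductase, had 563, 1276 and 112 tags and a ratio of 2.76 (2.50 to 3.06).

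The 5 lowest ratios were those of Txnip, Sesn1, Blvra, Gstm1 and Mgst3. Txnip, which binds and inhibits thioredoxin, had 1099 tags in UT, 267 after LPS and 54 in the input, a ratio of 0.296 (0.258 to 0.339). Sesn1, a sestrin, had 791, 217 and 513 tags and a ratio of 0.334 (0.286 to 0.389). Blvra, the other biliverdin reductase, had 535, 158 and 177 tags and a ratio of 0.360 (0.299 to 0.431), opposite in direction to Blvrb. The glutathione transferases Gstm1, with 0.388 (0.278 to 0.535), and Mgst3, with 0.435 (0.330 to 0.569), completed the list. Between them, the thioredoxin genes thus held both the highest ratio, that of Prdx1, and the lowest, that of Txnip.

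**Figure D4:**
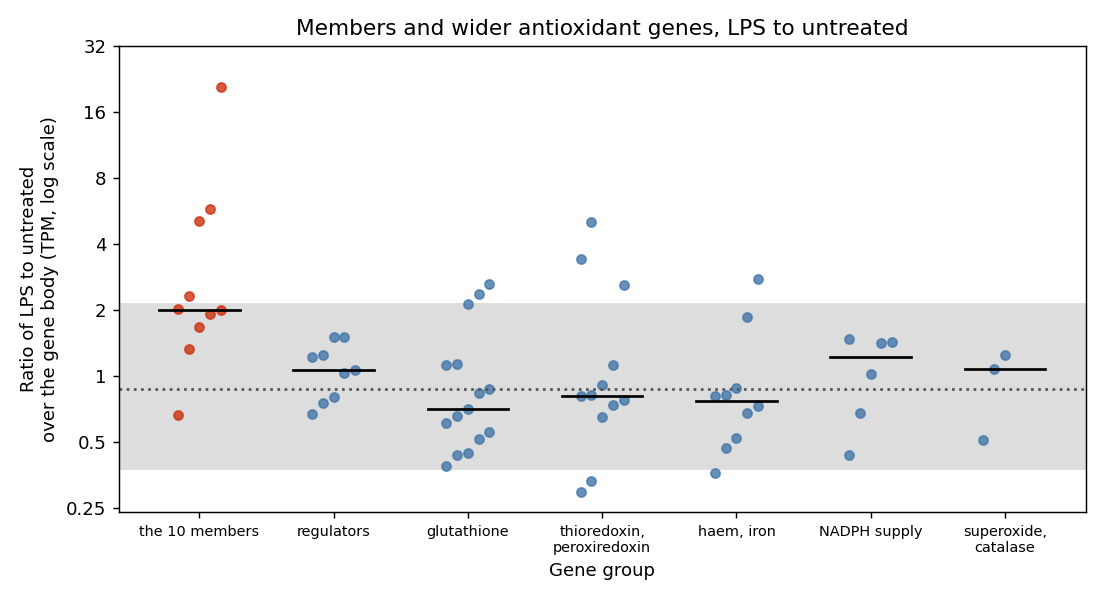
Ratio of LPS to untreated TPM over the gene body (log scale) for the 10 genes (red) and for the wider list by group (blue), with 1 point per gene and the median of each group as a bar. The dotted line is the median of all coding genes, 0.874, and the grey band holds the coding genes from the 5th to the 95th percentile, 0.378 to 2.13. Slc7a11, Sod2, Sqstm1 and Gclm lie above the band, and the groups of the wider list have medians between 0.712 and 1.22.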

How the data were processed

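Per the labels and the study's methods, the authors aligned the reads to mm9 with Bowtie, keeping unique matches that had up to 2 mismatches. They ran MACS separately on the UT and LPS tags, with the input as control and 1e-05 as the p-value limit. The versions are not given in the sources used here. The deposited tag files list each tag's position and strand, duplicates included, in positions that count from 0, so 1 bp was added. The deposited peak lists give a score, minus 10 times log10 of the authors' p-value, and peak positions are printed as in the file.

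Tags on chromosomes 1 to 19 and X were counted by their 5′ end and scaled to 1000000 tags of the library. Intervals at 95% are exact Poisson intervals for counts and exact intervals, given the sum of the tags, for ratios. For the ratio of 2 ratios they are exact conditional odds ratio intervals. A TSS is the most upstream start of a gene's protein-coding transcripts in GENCODE M1. Peaks were assigned on an overlap of at least 1 bp, and sequences were read from the mm9 assembly. The named genes are the 10 genes and, of the wider list, the 5 largest and 5 smallest ratios among genes with at least 50 Ser5 tags. The genes, lists and alternatives were chosen with earlier results of these data known. Python 3.11.15, numpy 2.4.6, pandas 2.3.3, scipy 1.17.1, numba 0.67.0 and matplotlib 3.10.9 were used. The scripts for counts and intervals were first checked on simulated tags.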

Additional observations from a re-analysis of the deposited data

How the results depend on the processing

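Of 76 alternative values of the counts of genes, 71 were within 1.5 times the main count and 5 moved further. Each count was judged alone, which cannot show a reversed direction. In the wider list, which direction was the more frequent over the gene body depended on the setting, as given above. The alternatives were identical tags counted once, tags moved 75 bp downstream, scaling to the tags outside the peaks, unique 30-base sequences, other windows, starts and minimums, a stricter peak score and a ratio of 1.5 in place of 2. With a ratio of 1.5 the genes higher over the body went from 5 to 8, and Gclc made 1 lower gene beyond 1 kb where there had been 0. The share of coding genes past a ratio of 1.5 is not given here, so these counts have no matching share. With no minimum of tags, Txnrd1 (4 and 0 tags) made 1 lower gene at the TSS. Genes with a larger ratio at the TSS than over the rest went from 2 to 1 with identical tags counted once and to 1 with 500 bp on each side, both alternatives chosen after seeing the data. Scaling to the tags outside the peaks multiplied every ratio by 1.08 and moved the median coding gene over the body from 0.874 to 0.940. It put 7 genes at 2 or more over the body in place of 5, while the share of coding genes there was 6.85% in place of 5.82%. Of 134 values of single genes 124 stayed within their interval, 10 moved and 0 reversed. Among those that moved was Keap1 at the TSS, whose ratio was 1.00 with 500 bp on each side. No paired analysis was possible because each condition had 1 library. With 1 library per condition, differences between cultures, antibody batches and sequencing runs cannot be told apart from the effect of LPS.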
